A study of Mus musculus with 5 samples.

Results

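Complement is a cascade of plasma and cell surface proteins, and 8 of its genes were described across the cell types of the adult mouse kidney out of 17389 genes in the count matrix. They were chosen as named genes of the pathway, with no threshold on a measured value. *C1qa*, *C1qb* and *C1qc* encode the 3 chains of C1q, the recognition molecule of the classical pathway. *C4b* and *C3* encode the components that are cleaved next, *Cfi* encodes factor I, the protease that inactivates C3b and C4b, and *Cd55* and *Cd59a* encode membrane proteins that protect a cell's own surface. CD55 (decay-accelerating factor) takes apart the C3 convertases, and CD59 blocks assembly of the membrane attack complex. Tissue macrophages are a known source of C1q, most plasma C3 and C4 comes from the liver, and podocytes and tubules are sites where complement injures the kidney in glomerular disease.

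Perfused adult kidneys were dissociated to single cells, whose polyadenylated RNA was read from its 3′ end in a droplet assay and counted by unique molecular identifiers (UMIs, 1 per captured molecule). The *Fame* knockout (KO) libraries were KO female, KO male and KO mix, and the wild type (WT) libraries were WT female and WT mix, and the mix libraries pool male and female cells. All mice were of the *FVB/Ant* strain and littermates, and in the knockout a CRISPR/Cas9 insertion placed consecutive stop codons after the start codon of *Fame*. The number of mice behind a library was not given in the sources used here, WT had no male library, and the single-sex libraries shared run 2 while both mixed libraries shared run 3, so that run and the kind of library cannot be told apart. The libraries held 1794 to 3567 cells and 9791091 to 15950717 UMIs, 14197 cells in all, and 25 cell barcodes occurred in more than 1 library. The median share of mitochondrial UMIs per cell was 12.6% to 15.3% in the single-sex libraries, against 29.4% and 28.4% in KO mix and WT mix. The transcript of *Fame*, listed as *ccdc198*, was present at 148, 127 and 83.1 CPM (counts per 1000000 UMIs) in KO female, KO male and KO mix, against 196 and 71.5 CPM in WT female and WT mix, and a count of transcripts does not show whether they carry the stop codons. The authors report that their single-cell data showed the stop codons in *Fame* transcripts of single knockout cells. The cell types are the 19 types of the authors. Against marker genes, myeloid cells and fibroblasts exceeded the other cells in 6 of 6 markers each, podocytes in 5 of 5, LOH (the loop of Henle) in 4 of 4, and PTs and PTc, the straight and convoluted proximal tubule, in 6 of 8 each.

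The C1q genes lie side by side on the minus strand of chromosome 4 (GRCm38), *C1qb* at chr4:136880129-136886187, *C1qc* at chr4:136889804-136893065 and *C1qa* at chr4:136895917-136898803, within 18.7 kb in all. Since their transcripts were found in the same cells, the start regions of *C1qb* and *C1qc* are shown, 250 bases before to 50 after the start of the RefSeq gene (GRCm38.p6), at chr4:136886151-136886450 and chr4:136892865-136893164. They are written 5′ to 3′ on the strand of the gene, and capitals mark the motif GAGGAA or its reverse complement, the core that PU.1, a transcription factor of myeloid cells, is known to bind.
C1qb: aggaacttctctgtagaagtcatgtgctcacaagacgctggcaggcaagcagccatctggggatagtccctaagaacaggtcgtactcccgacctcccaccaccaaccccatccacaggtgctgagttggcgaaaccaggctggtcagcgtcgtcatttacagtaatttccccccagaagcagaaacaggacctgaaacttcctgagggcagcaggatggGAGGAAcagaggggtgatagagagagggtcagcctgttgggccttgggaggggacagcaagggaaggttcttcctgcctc
C1qc: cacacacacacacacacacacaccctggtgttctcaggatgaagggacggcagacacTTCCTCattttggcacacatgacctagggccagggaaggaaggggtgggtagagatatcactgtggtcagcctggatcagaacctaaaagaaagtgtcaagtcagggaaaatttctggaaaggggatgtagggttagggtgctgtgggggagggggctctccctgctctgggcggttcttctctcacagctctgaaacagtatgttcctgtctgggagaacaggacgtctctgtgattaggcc
Each held the motif once, *C1qb* on the strand of the gene and *C1qc* on the other strand. Of the 5 members with a RefSeq start region, 3 held it, *Cd59a* being the third, against 28.3% of all 32851 start regions of that length, searched on both strands. A match is a description of letters only. *C1qa*, *C4b* and *Cfi* were not matched.

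The 8 genes fell into separate patterns. The C1q chains were by far highest in myeloid cells, and *C3* was highest in fibroblasts (Fib) and the parietal epithelium of the glomerulus (PE). *C4b* and *Cfi* were near the limit of detection. *Cd55* was highest in podocytes (GL podo), and *Cd59a* was present in nearly every type with podocytes on top. The levels below are CPM of the UMIs of a library and cell type, given as the mean ± SD over libraries with at least 10 cells of the type. The types were clustered from these same cells, so levels of types are described and not tested.

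**Figure D1:**
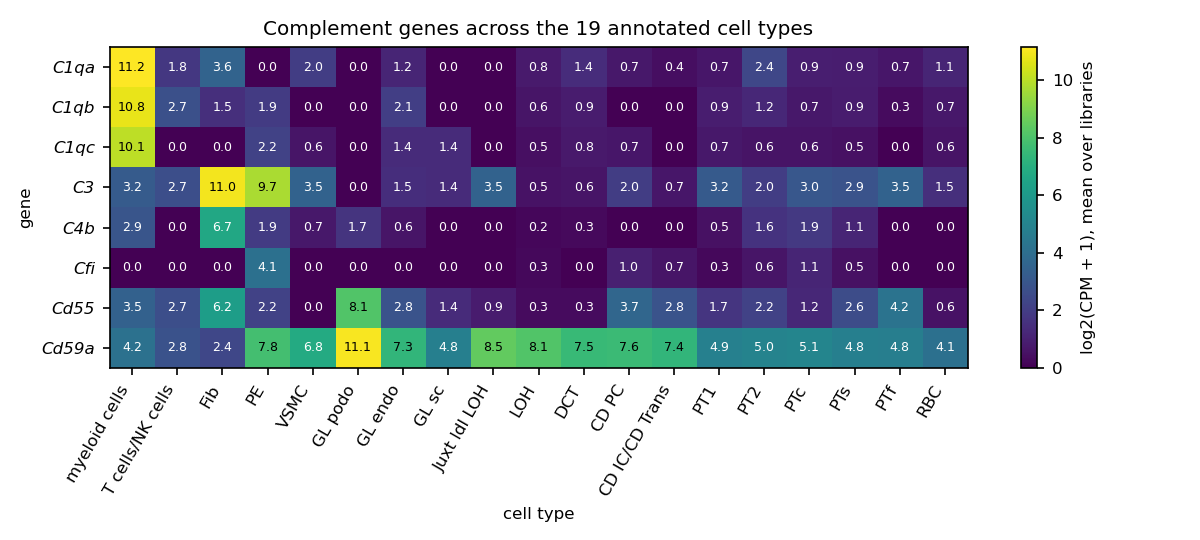
Heat map of the 8 genes (rows) in the 19 cell types (columns), coloured and labelled by log2(CPM + 1), the mean over libraries with at least 10 cells of the type. C1qa, C1qb and C1qc stand out in myeloid cells only, C3 in Fib and PE, and Cd59a is spread over most types with its highest value in GL podo.

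*C1qa* reached 2382, 1662 and 2856 CPM in the myeloid cells of KO female, KO male and KO mix, against 1814 and 3055 CPM in WT female and WT mix. For *C1qb* the values were 1643, 1271 and 2222 CPM in the same KO libraries, against 1814 and 2134 CPM in WT. The third chain, *C1qc*, had 1150, 538 and 1596 CPM in KO and 854 and 1678 CPM in WT. The order of the chains over all libraries was 2354 ± 615 CPM for *C1qa*, 1817 ± 385 CPM for *C1qb* and 1163 ± 485 CPM for *C1qc* (SD, n = 5 libraries). In each library the lowest chain was *C1qc*. The next type of each chain stood far lower, at 36.0 ± 72.0 CPM of *C1qa* and 21.8 ± 27.7 CPM of *C1qb* in T cells/NK cells (SD, n = 4) and 9.89 ± 14.0 CPM of *C1qc* in PE (SD, n = 2), and the ranges over libraries did not overlap with those of myeloid cells. The myeloid cells numbered 340 of 14197, yet held 93.5% of the *C1qa* UMIs, 93.9% of those of *C1qb* and 95.3% of those of *C1qc*. These pooled shares were set mostly by the mixed libraries. For the 3 chains together, myeloid cells held 90.9%, 67.9% and 97.7% of the UMIs in KO female, KO male and KO mix. In WT female and WT mix they held 55.3% and 97.4%. They were unevenly spread over libraries, with 14, 20 and 148 in KO female, KO male and KO mix, against 11 and 147 in WT female and WT mix.

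Within the myeloid cells, most cells held either all C1q chains or none. All 3 chains were found in 237 cells, a pair of chains in 30, a single chain in 3 and none in 70. Only 10 cells had 1 to 4 C1q UMIs, while 260 had at least 5. The share with at least 2 chains was 78.5% (95% exact binomial interval 73.8% to 82.8%), which covers counting error only. It was 78.6%, 70.0% and 80.4% in KO female, KO male and KO mix, against 45.5% and 80.3% in WT female and WT mix, the WT female value resting on 11 cells with an interval of 16.7% to 76.6%. The median depth was 1458 UMIs in cells with at least 2 chains and 1744 UMIs in cells with none.

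**Figure D2:**
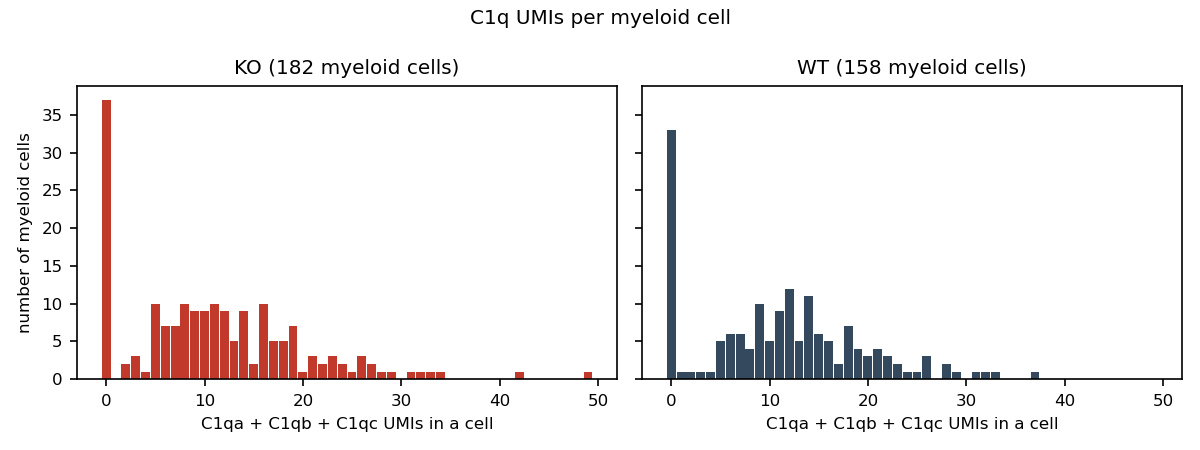
Number of myeloid cells (vertical axis) by the sum of C1qa, C1qb and C1qc UMIs in the cell (horizontal axis), for the KO libraries on the left and the WT libraries on the right. Both genotypes have a peak of cells with no C1q UMI and a broad second group of cells from about 5 UMIs upwards.

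The cells with and without C1q differed in other genes. Since the cells were split by C1q, these values are a description over pooled cells and carry no test. All 7 genes of the resident macrophage list were higher in the 267 cells with at least 2 chains than in the 70 cells with none, and so they were in KO mix and WT mix taken alone. *Apoe*, a lipid carrier abundant in tissue macrophages, had 5685 CPM in cells with C1q and 410 CPM in cells without. *Ms4a7* had 95 UMIs in cells with C1q and 1 UMI in cells without. In the opposite direction went all 5 genes of the monocyte list, all 5 of the dendritic cell list and all 4 of the neutrophil list, and the direction was the same in KO mix and WT mix alone for 4 monocyte and all 5 dendritic cell genes. The neutrophil gene *S100a9* had 0 UMIs in cells with C1q and 40 UMIs in cells without, and WT mix held no UMI of the neutrophil list. *Plac8*, a gene of circulating monocytes, had 11.4 CPM in cells with C1q and 615 CPM in cells without, and *Cd209a*, a lectin of dendritic cells, had 1 UMI in cells with C1q and 39 UMIs in cells without. Of the receptors for complement fragments, *C3ar1*, the receptor of C3a, had 67 UMIs in cells with C1q and 0 in cells without, where 0 allows up to 21.2 CPM against the 152 CPM of the cells with C1q. *C5ar1*, the receptor of C5a, had 53 UMIs in cells with C1q and 1 in cells without. The integrin chain *Itgb2*, part of complement receptors on leukocytes, was lower, at 38.7 CPM in cells with C1q and 219 CPM in cells without.

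C1q outside the myeloid type was rare. Of 13857 other cells, 84 held any C1q UMI (0.606%), and 32 held at least 2 UMIs. The share with any C1q UMI was 1.75% in KO male and 0.317% to 0.556% in the other libraries. All 32 also held a UMI of *Ptprc*, *Lyz2*, *Cd74*, *Csf1r*, *Cd68* or *Adgre1*, the 6 myeloid markers, whose summed level was 2874 CPM in these cells and 65.4 CPM in the 13773 cells without C1q. The part of free RNA and of mixed droplets in this was not tested. A single PTs cell of WT female held 50 of the 238 C1q UMIs found outside the myeloid type. The chains stood in similar proportions outside and inside the myeloid type, 48.3% and 43.9% *C1qa*, 33.2% and 32.5% *C1qb*, and 18.5% and 23.6% *C1qc*. Red blood cells (RBC), which should lack the gene, held *C1qa* in 0.802% of 873 cells, with a median depth between 1273 and 2119 UMIs per library, against 77.4% of the 340 myeloid cells at a median of 1493.5 UMIs. The RBC label was not among those compared with markers here. Female RBC cells also held the factor B gene *Cfb*, highest in PTs and PTc, at 96.6 ± 14.9 CPM (SD, n = 2), so RBC may not be a clean reference. The genes nearest to the C1q chains across the 19 types, by Pearson correlation of mean log2(CPM + 1) among 10611 genes with at least 200 UMIs, were *Lyz2*, *Il1b* and *Mpeg1* for *C1qa* (r = 0.939, 0.933 and 0.930), *Cd83*, *Ccl4* and *Il1b* for *C1qb* (r = 0.981, 0.971 and 0.970) and *Cxcl2*, *Pld4* and *Mpeg1* for *C1qc* (r = 0.968, 0.967 and 0.946). These correlations and those below describe 19 types that share libraries, and for C1q myeloid cells are the only type with a high value.

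*C4b*, which follows C1q in the classical pathway, had 107 UMIs in all. It was highest in Fib, with 3 UMIs in 21 cells of KO mix (68.6 CPM), against 6 UMIs in 22 cells of WT female (54.3 CPM) and 8 UMIs in 16 cells of WT mix (276 CPM). Fib averaged 133 ± 124 CPM (SD, n = 3) and overlapped with the next type, myeloid cells at 27.9 ± 45.2 CPM (SD, n = 5). Of the 28 *C4b* UMIs in Fib, 20 came from 4 of the 65 cells. PTc and PTs held 26 UMIs each, at 2.76 ± 1.15 and 1.31 ± 0.713 CPM (SD, n = 5). *C4b* at chr17:34728380-34743882 has a near-identical neighbour, *C4a*, at chr17:34809092-34823464, so the split of counts between them is uncertain. *C4a* had 63 UMIs, 53 of them in PTs. Nearest to *C4b* across types were *Col1a1*, *Rnase4* and *Igfbp6* (r = 0.839, 0.826 and 0.805).

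*C3*, the component on which all pathways converge, had 1351 UMIs, 50.3% of them in the 65 cells of Fib. In Fib it reached 1075 CPM in KO mix (21 cells), against 3357 and 2275 CPM in WT female (22 cells) and WT mix (16 cells), while KO female and KO male had 3 cells each. The Fib value rested on few cells. Of 679 UMIs, 513 came from 4 cells, 1 of KO male with 184 UMIs and 3 of WT female with 181, 97 and 51. These 4 cells had 12137 CPM of the fibroblast gene *Dcn*, against 5106 CPM in the other 61 Fib cells. The fibroblast gene *Col1a1* went the other way, at 218 CPM in the 4 cells and 1104 CPM in the other 61. The 4 cells also had *Msln*, *Upk3b*, *Upk1b* and *Krt19* at 1687, 1288, 744 and 925 CPM. The other 61 Fib cells had 31.9, 38.3, 31.9 and 31.9 CPM of these. The 4 genes are known from mesothelium and other lining epithelia and were named after their values were seen. Without these cells the mean of Fib fell to 1319 CPM, against 2236 ± 1142 CPM with them (SD, n = 3), and stayed the highest mean of all types. KO male, with 3 Fib cells, entered neither mean, so the fall came from WT female alone. WT female then lay below KO mix, and the range of Fib overlapped with that of PE.

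In PE *C3* was lower but more even, with a UMI in 34 of 44 cells and no cell above 22 UMIs. PE reached 870 CPM in KO mix (15 cells) and 824 CPM in WT mix (19 cells), the only libraries with at least 10 such cells, and did not overlap with the third type. That type, the principal cells of the collecting duct (CD PC), had 74.7 ± 166 CPM (SD, n = 5), all but 5 of its 166 *C3* UMIs from 1 cell of WT female. This cell had 0 UMIs of *Aqp2* and *Hsd11b2*, markers of principal cells, but 334 UMIs of *Lcn2*, 253 of *Prap1* and 106 of *Ltf*, and without it CD PC averaged 2.29 CPM of *C3*. *C3* was low in the proximal tubule, at 7.64 ± 3.22 CPM in PTc and 6.56 ± 2.27 CPM in PTs (SD, n = 5), against 3.21 ± 3.67 CPM in RBC. The nearest genes across types were *Igfbp6*, *Adamts15* and *Dcn* (r = 0.910, 0.894 and 0.811). *C3* lies at chr17:57203970-57228136, and the microRNA gene *Mir6978* overlaps it on the same strand.

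**Figure D3:**
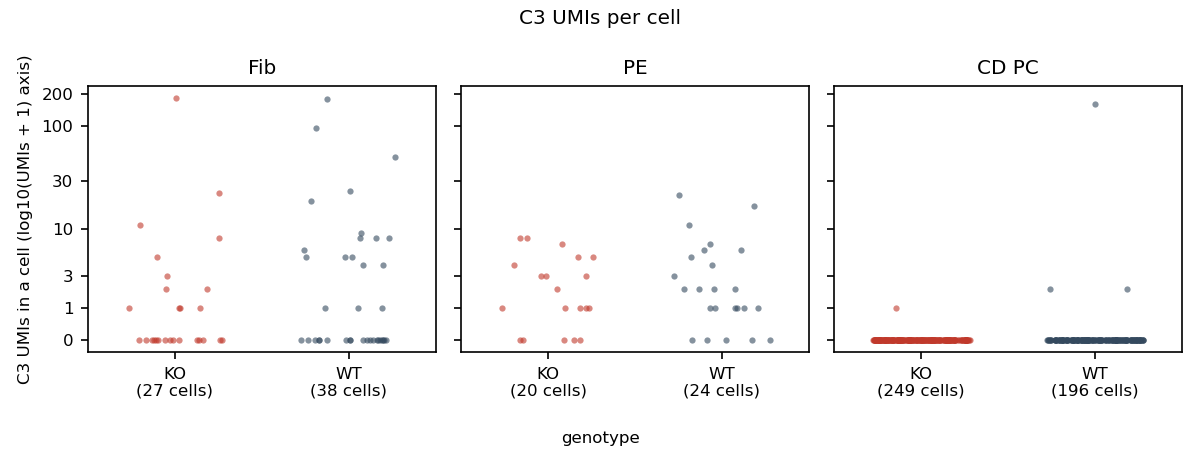
C3 UMIs in each cell (vertical axis, log10 of UMIs + 1) of Fib, PE and CD PC, KO left of WT in each panel, with 1 point per cell and a random sideways spread. In Fib 4 cells and in CD PC a single cell hold most UMIs of their types, whereas PE cells lie together between 0 and 22 UMIs.

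*Cfi*, the protease that cuts C3b and C4b together with a cofactor, had 50 UMIs in 38 cells. By mean CPM it was highest in PE, at 16.8 ± 4.27 CPM (SD, n = 2), which is 1 UMI in KO mix and 1 in WT mix. The *C3*-rich cell of CD PC held 12 of the 50 UMIs. PTc and PTs held 13 and 14 UMIs, 1.32 ± 0.849 and 0.536 ± 0.763 CPM (SD, n = 5). No other type had more than 3 UMIs. *Cfi* lies at chr3:129835884-129875332, and its nearest genes were *Cldn1*, *Nbeal2* and *Pcp4* (r = 0.841, 0.792 and 0.778).

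*Cd55* had 411 UMIs. Podocytes reached 233 CPM in KO mix (26 cells) and 344 CPM in WT mix (30 cells), with a UMI in 30 of all 64 podocytes. Fib came next at 75.4 ± 25.3 CPM (SD, n = 3) and did not overlap with podocytes, and from the third type on the ranges overlapped. PTs held the largest number of *Cd55* UMIs, 177, at 8.99 ± 9.16 CPM (SD, n = 5), with the values far apart between libraries as described below for the sex of the cells. RBC held 2 *Cd55* UMIs in 873 cells. *Cd55* at chr1:130439027-130462744 is overlapped on the other strand by *Gm16083*. Whether strand was used in counting is not stated in the sources. Its nearest genes across types were *Dpp4*, *Ap3s1* and *Sec61b* (r = 0.790, 0.741 and 0.740).

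*Cd59a* was the most abundant member, with 5961 UMIs in 20.4% of all cells. Podocytes stood apart at 1985 CPM in KO mix and 2311 CPM in WT mix, with a UMI in 57 of 64 cells, and 28 podocytes held both *Cd55* and *Cd59a*. Long descending limb cells of juxtamedullary nephrons (Juxt ldl LOH) had 541, 404 and 245 CPM in KO female, KO male and KO mix, against 469 and 244 CPM in WT female and WT mix. LOH had 331, 384 and 202 CPM in the KO libraries, against 338 and 208 CPM in WT. In both types the single-sex libraries of run 2 lay above the mixed libraries of run 3. The order went on with PE at 228 ± 69.5 CPM (SD, n = 2), CD PC at 197 ± 29.2, the distal convoluted tubule (DCT) at 196 ± 70.1, CD IC/CD Trans (intercalated and transitional cells) at 167 ± 47.5 and glomerular endothelium at 164 ± 39.4 CPM (SD, n = 5 each), and from Juxt ldl LOH downwards the ranges of neighbours overlapped. The proximal tubule was low, with 33.5 ± 8.41 CPM in PTc and 29.6 ± 14.4 CPM in PTs, close to the 31.3 ± 24.4 CPM of RBC (SD, n = 5 each), where 9.05% of cells held a UMI. RBC express CD59 in life, so they are no clean measure of free RNA for this gene.

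Run 2 was above run 3 without overlap in 6 of 8 types compared for *Cd59a*, and in 5 of 8 when CPM was taken relative to non-mitochondrial UMIs. In LOH the mitochondrial share of UMIs was 15.7%, 20.1% and 37.6% in KO female, KO male and KO mix, against 16.3% and 38.3% in WT female and WT mix, and on the non-mitochondrial scale *Cd59a* had 393, 481 and 324 CPM in the KO libraries, against 404 and 337 CPM in WT. *Cd59a* at chr2:104095801-104115354 lies beside its paralogue *Cd59b* (chr2:104069849-104091187, 1007 UMIs), and whether reads were shared between them was not tested. *Cd59b* was also the gene nearest to *Cd59a* across types (r = 0.910), followed by *Pdrg1* and *Gadd45a* (r = 0.893 and 0.881), and it too was highest in podocytes (300 ± 133 CPM, n = 2) and Juxt ldl LOH (165 ± 83.5 CPM, n = 5).

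Of 47 other complement genes, 38 were in the matrix and 19 had a mean of at least 50 CPM in some type. Several of them had their highest mean in fibroblasts. There the C1 inhibitor gene *Serping1* had 1976 ± 1026 CPM, *C2* 199 ± 58.5, the C1s gene *C1s1* 169 ± 57.3, *C1s2* 69.4 ± 33.6, *C1ra* 54.2 ± 43.2 and *Csmd1* 51.0 ± 35.2 CPM (SD, n = 3). *C1s2*, *C1ra* and *Csmd1* rested on only 10, 12 and 8 UMIs in the 65 Fib cells, near the limit of detection. Clusterin (*Clu*), a fluid phase inhibitor of the terminal complex, led in DCT with 1325 ± 448 CPM (SD, n = 5). Factor B (*Cfb*), the alternative pathway protease, was highest in PTs with 234 ± 75.7 CPM and PTc with 220 ± 74.5 CPM (SD, n = 5). The terminal component *C8a* was highest in PTf, the proximal tubule cluster named female-specific, with 133 ± 64.7 CPM (SD, n = 4). *Cd93* and *Cr1l* were highest in glomerular endothelium, at 311 ± 111 and 141 ± 22.3 CPM, *C3ar1*, *Itgb2*, *C5ar1* and properdin (*Cfp*) in myeloid cells, at 87.1 ± 40.7, 91.2 ± 72.6, 70.7 ± 46.9 and 58.7 ± 62.5 CPM, *Colec12* in podocytes, at 234 ± 52.1 CPM, and *Susd4* in Juxt ldl LOH, at 55.7 ± 38.1 CPM.

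No complement gene tested passed the threshold between KO and WT kidneys. For each cell type the UMIs of a library were added up, and KO was compared with WT by the quasi-likelihood test of edgeR with Benjamini-Hochberg adjustment over all genes of a type. Of the 8 members, 6 passed the filter on low counts in at least 1 of 14 types tested, in 18 tests in all, *C4b* and *Cfi* in none. Among these 18 tests 0 were past an adjusted p of 0.05, and 0 had an unadjusted p under 0.05, the lowest being 0.133. DESeq2 called 0 as well. The background was the same, 0% of the genes tested in each of these types, with 3 of 625 genes in myeloid cells and 12 of 10342 in PTs at an unadjusted p under 0.05. None of the 13 other complement genes tested was called, in 54 tests. The lowest p among them were 0.0628 for *Clu* in PTs (log2 fold change -0.75, SE 0.33), 0.197 for *C8g* in PT2 (-0.72, SE 0.52), 0.227 for *Cd93* in glomerular endothelium (-0.52, SE 0.40) and 0.227 for *Clu* in DCT (-0.51, SE 0.40), each with an edgeR adjusted p of at least 0.999.

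The C1q chains had log2 fold changes of KO over WT near 0 in myeloid cells, -0.00 (95% interval -1.04 to 1.04) for *C1qa*, -0.09 (-1.06 to 0.87) for *C1qb* and -0.16 (-1.39 to 1.08) for *C1qc*. The KO and WT ranges overlapped for each chain. Permuting the genotype over the 5 libraries (exact, two-sided, smallest possible p = 0.1) gave p = 0.8, 0.5 and 0.8. For *C3* the KO libraries lay below both WT libraries in PTc, at 2.97, 6.03 and 8.65 CPM in KO female, KO male and KO mix, against 9.26 and 11.3 CPM in WT female and WT mix. The log2 fold change was -0.88 (SE 0.52, 95% interval -2.09 to 0.33), and the exact permutation test gave p = 0.2. Of the 19 *C3* UMIs of WT mix in PTc, 10 lay in 2 female cells. *C3* in PTs overlapped, with a log2 fold change of -0.36 (SE 0.42). *Cd59a* gave 0.14 (-1.02 to 1.29) in Juxt ldl LOH and 0.16 (-0.60 to 0.92) in LOH, and its values in 12 types ran between -0.19 in PT1 and 0.66 in VSMC, the vascular smooth muscle. On simulated counts a 2-fold change was recovered in 15.6% of genes in myeloid cells and 4.17% in LOH, and an 8-fold change in 80.9% and 92.0%, so that most 2-fold changes would be missed with 3 against 2 libraries. The simulated libraries had no effect of sex or run that genes share, so the real test may recover fewer. Only 362 of the 540 genes simulated in myeloid cells were left unchanged, against 8516 of 8710 in LOH. So many changed genes ease the adjustment in myeloid cells. Their recovery may therefore be too high and cannot be set against that of LOH.

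**Figure D4:**
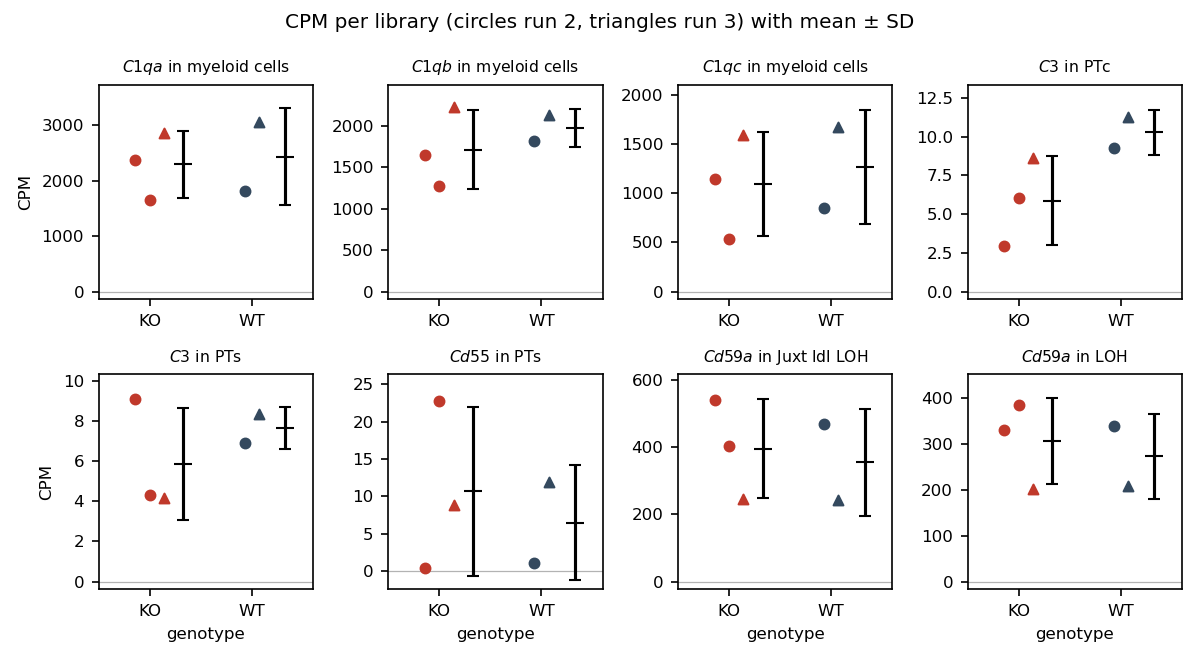
CPM of members in their main tested cell types, with 1 point per library, KO left of WT, circles for run 2 and triangles for run 3, and bars for mean ± SD (n = 3 KO and 2 WT libraries). KO and WT points overlap in every panel except C3 in PTc, where the 3 KO libraries lie between 2.97 and 8.65 CPM and the 2 WT libraries at 9.26 and 11.3 CPM. For that panel the exact permutation test over libraries gave p = 0.2.

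*Cd55* in PTs differed widely between libraries of the same genotype. It had 0.363, 22.7 and 8.87 CPM in KO female, KO male and KO mix, against 1.05 and 12.0 CPM in WT female and WT mix. Both female libraries were the lowest and KO male was the highest. The log2 fold change of KO over WT was 0.76 (SE 1.56), and it was -0.53 without KO male and -0.54 with the sex composition of the libraries as a block.

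To set apart the sexes, cells with a UMI of *Xist* and none of 4 Y-linked genes were taken as female and cells with the reverse as male. This left out 45.9% to 64.9% of the cells of a library. No cell of KO female or WT female was called male and none of KO male female. The mixed libraries hold cells of both sexes and allow no such check, and the part of free RNA in their calls was not tested. Sums per library and sex were then compared as male over female with the run as a covariate, in PTs, PTc and LOH 3 male sums (KO male, KO mix, WT mix) against 4 female sums (KO female, KO mix, WT female, WT mix). The male and the female sum of a mixed library share that library.

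In PTs, *Cd55* was higher in male cells. It had 22.1, 11.4 and 10.4 CPM in the male cells of KO male, KO mix and WT mix, against 0.207, 1.48, 1.18 and 2.72 CPM in the female cells of KO female, KO mix, WT female and WT mix. All male sums were above all female sums. A UMI was found in 86 of 646 male and 9 of 1100 female PTs cells, and in each library the share was 21.4%, 7.44% and 5.09% of male cells, against 0.281%, 0.714%, 1.35% and 1.06% of female cells, at median depths of 9891, 6555 and 4761.5 UMIs in male and 9103, 5013.5, 8105 and 3998 UMIs in female cells. With every cell thinned to 1000 UMIs the shares were 2.27%, 2.48% and 0.926% in male cells, against 0%, 0%, 0% and 1.06% in female cells, so that WT mix female cells then lay above WT mix male cells. The WT mix shares are of 94 female and 216 male cells, so this order rests on very few positive cells. The log2 fold change was 4.62 (SE 0.42, edgeR adjusted p = 1.03e-08). It was 2.74 without KO male (adjusted p = 0.0282, edgeR) and 2.77 with the library as a block, which compares the sexes within the mixed libraries (adjusted p = 0.0174, edgeR), so the size of the difference depended on KO male while the call did not.

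*Cd59a* went the other way in PTs. It had 24.6, 8.90 and 13.2 CPM in male cells of KO male, KO mix and WT mix, against 43.3, 31.0, 46.7 and 27.2 CPM in female cells of KO female, KO mix, WT female and WT mix. Again the sums of the sexes did not overlap, whereas the shares of cells with a UMI after thinning to 1000 UMIs did, at 3.88%, 0.826% and 1.39% of male cells, against 1.97%, 2.14%, 4.86% and 4.26% of female cells. The log2 fold change was -0.84 (SE 0.19, edgeR adjusted p = 0.00141), and -1.29 with the library as a block (adjusted p = 0.0101, edgeR). With the genotype as the covariate in place of the run it was -1.02 (adjusted p = 0.132, edgeR) and with no covariate -0.99 (adjusted p = 0.0782, edgeR). Both members tested in PTs, *Cd55* and *Cd59a*, were thus called, where 26.8% of all genes tested were called in PTs, 14.3% higher and 12.6% lower in male cells.

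Outside PTs no member was called, but *Cd59a* was below the filter of this test in the proximal tubule clusters PT1 and PT2. In PT1 its male sums ran from 9.38 to 23.2 CPM (8 UMIs in 179 cells). The female sums of PT1 lay above them, from 42.5 to 119.7 CPM (11 UMIs in 65 cells). In PT2 the sums of the sexes overlapped, from 0 to 49.0 CPM in male and 18.9 to 33.1 CPM in female cells. In LOH *Cd59a* averaged 284 ± 96.1 CPM in male (SD, n = 3) and 263 ± 76.3 CPM in female cells (SD, n = 4), with a log2 fold change of 0.24 (SE 0.14, edgeR adjusted p = 0.881), where 0.34% of genes were called. In CD IC/CD Trans it was 0.49 (SE 0.23, unadjusted p = 0.0434 and adjusted p = 0.814 from edgeR, with 0.289% of genes called, 0.089% higher in male cells), and in PTc -0.32 (SE 0.25, edgeR adjusted p = 0.594, with 6.92% called). The difference between PTs and LOH in the effect of sex on *Cd59a* was -1.06 on the log2 scale (SE 0.27, edgeR adjusted p = 0.00587, with 5.48% of 9063 genes called) in a fit with the library and sex of each sum as a block, chosen after the separate results were seen. Between PTs and PTc it was -0.54 (SE 0.33, edgeR adjusted p = 0.507). For *Cd55* the same differences were 1.41 (SE 3.62, edgeR adjusted p = 0.911) between PTs and LOH and 0.72 (SE 1.89, edgeR adjusted p = 0.934) between PTs and PTc, and *Cd55* was below the filter of the separate tests outside PTs. In PTc it had 8 UMIs in 313 male cells and 2 UMIs in 957 female cells. Low *Cd55* in female cells did not hold for every proximal tubule cluster. Female cells of PTf had 16.6 ± 10.3 CPM (SD, n = 3), with a UMI in 16 of 124 cells. Male cells of PTf were under 10 in every library, so the sexes were not compared there.

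**Figure D5:**
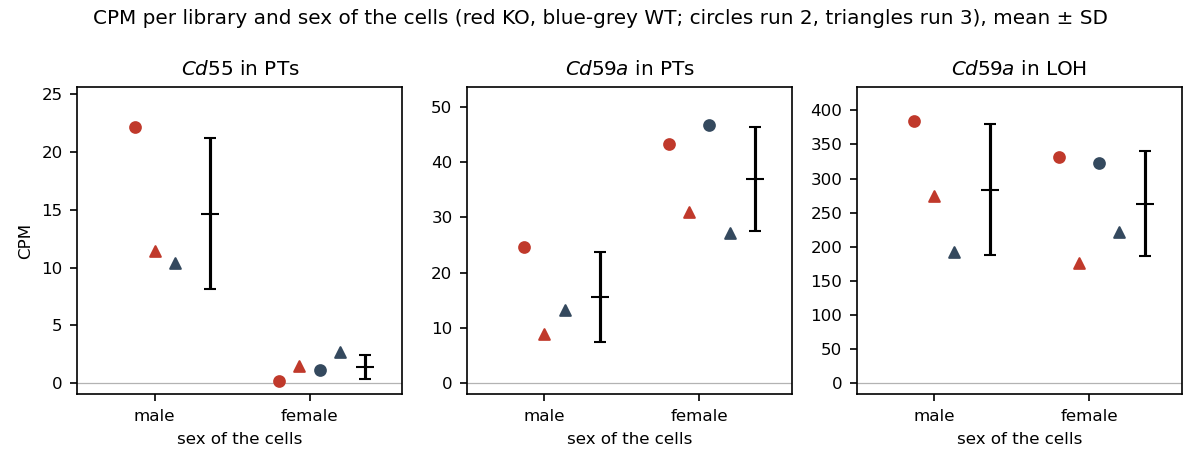
CPM in male cells (left) and female cells (right) of each library for Cd55 in PTs, Cd59a in PTs and Cd59a in LOH, red for KO and blue-grey for WT libraries, circles for run 2 and triangles for run 3, with mean ± SD (n = 3 male and 4 female sums). In PTs the 3 male sums of Cd55 lie between 10.4 and 22.1 CPM above the female sums, those of Cd59a between 8.90 and 24.6 CPM below them, and in LOH the sexes overlap.

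Of the 7 other complement genes tested in PTs, 3 were higher in male cells, 2 were lower and 2 did not pass the test, where 26.8% of all genes tested in PTs were called. *C8a* was higher with a log2 fold change of 3.43 (SE 0.44, edgeR adjusted p = 4.04e-06), *C8g*, another chain of the terminal component C8, with 0.85 (SE 0.17, edgeR adjusted p = 0.000682) and *Cfb* with 0.34 (SE 0.12, edgeR adjusted p = 0.0469) in the fit with the run as covariate. *C8a* had 13.8 ± 3.51 CPM in male (SD, n = 3) and 2.89 ± 2.41 CPM in female PTs cells (SD, n = 4). Female PTf cells had far more, 148 ± 79.5 CPM (SD, n = 3), with a UMI in 55 of 124 cells. The sexes were not compared in PTf. The *Cfb* sums of the sexes overlapped, with means of 204 ± 99.3 CPM in male (SD, n = 3) and 203 ± 76.4 CPM in female cells (SD, n = 4). *C2*, the protease of the classical C3 convertase, was lower with -1.25 (SE 0.21, edgeR adjusted p = 7.09e-05), as was the mannose-binding lectin *Mbl1* with -0.95 (SE 0.29, edgeR adjusted p = 0.0159). *C4a* was below the filter, with 30 UMIs in 646 male PTs cells and 0 UMIs in 1100 female PTs cells. *C4b* was also below it, with 1.38, 5.09 and 4.73 CPM in male cells of KO male, KO mix and WT mix, against 0.828, 0, 0.474 and 0 CPM in female cells of KO female, KO mix, WT female and WT mix.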

How the data were processed

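UMI counts were made by the authors in Cell Ranger 4.0.0 against mm10, and cells with few UMIs or a high mitochondrial share were removed and cell types assigned in Seurat 3.2.2.9001. The deposited matrix holds these raw counts, and the annotation holds, per the file headers, each cell's library, run, cell type, percent of mitochondrial UMIs and doublet score. Doublets were not removed here, and 1831 cells had a score over 0.2. Libraries were grouped by genotype from their labels, and the replicates are libraries, so that p-values measure the spread between them, which may be technical. The authors tested single cells, which are not replicates, so UMIs were added up here within each library and cell type of at least 10 cells, with 2 libraries per genotype required. These sums were tested with edgeR 4.0.16 (TMM, the default filter on low counts, robust quasi-likelihood fit, two-sided, adjusted p threshold 0.05). Standard errors come from the fold change and its F statistic. CPM are relative to all UMIs of a sum, without TMM. Shares carry 95% exact binomial intervals, and a count of 0 allows up to 3 counts. The members and gene lists were chosen with earlier results of these data known. Named other genes are those with a mean of at least 50 CPM in a type, those past a threshold and the 4 with the lowest p. Main cell types of a member are the 2 with the highest mean among those tested. Coordinates are from GENCODE M21. The sex test was checked on simulated data, where 85.1% of genes changed by 2-fold were recovered in PTs over 7734 genes. The genotype test was simulated over 540 genes in myeloid cells and 8710 in LOH. Neither simulation held an effect of the run or of a shared library. Alternatives were DESeq2 1.42.0, no filter, at least 20 cells, blocks for the sex composition, run or library, other covariates, cells with at most 25% mitochondrial UMIs or a doublet score of at most 0.2, all cells of single-sex libraries, thinning, each library left out in turn and an adjusted p threshold of 0.01. Some genes of the lists are not reported here. R 4.3.3 ran the tests. Levels and figures were made in Python 3.11.15 (matplotlib 3.10.9, pandas 2.3.3, scipy 1.17.1, numpy 2.4.6).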

Additional observations from a re-analysis of the deposited data

Results flagged for a closer look

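*C3* in female PTc cells was far higher in WT mix, at 41.9 CPM, than in the other female sums, 2.59 CPM in KO female, 9.19 CPM in KO mix and 8.07 CPM in WT female. The WT mix value rests on 10 UMIs in 2 of 62 cells. It was 1 of 7 groups of 4 sums examined in this way, and chance marks about 1 group in 20.

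The effect of sex on *Cd59a* differed between PTs and LOH by -1.06 on the log2 scale in the edgeR fit with the library and sex of each sum as a block. In PTs the male sums ran from 8.90 to 24.6 CPM and the female sums from 27.2 to 46.7 CPM, whereas in LOH they ran from 192 to 384 CPM in male and from 177 to 332 CPM in female cells.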

How the results depend on the processing

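The highest cell type of a member was the same for all 8 members under each library left out and every other setting except thinning to 1000 UMIs, where it was the same for 7. No member was called between KO and WT except *C3* in CD PC without WT mix, giving 1 call instead of 0 (log2 fold change -8.17, 0.159% of genes called), where the WT value is WT female alone and 161 of its 165 UMIs come from 1 cell. The 8 uncalled genotype fold changes changed sign in 21 of 88 combinations of a fold change and a setting. With the sex composition as a block they were 0.13 for *C1qa*, 0.050 for *C1qb* and 0.14 for *C1qc* in myeloid cells, -0.54 for *Cd55* in PTs and -0.028 for *Cd59a* in LOH. With the run as a block they were 0.16 for *C1qa*, 0.063 for *C1qc* and -0.022 for *Cd59a* in Juxt ldl LOH, and with at most 25% mitochondrial UMIs 0.0034 for *C1qa*. With each library left out they ran from -0.48 to 0.78 for *C1qa*, -0.38 to 0.36 for *C1qb*, -0.67 to 0.81 for *C1qc*, -0.53 to 3.53 for *Cd55*, -0.29 to 0.72 for *Cd59a* in Juxt ldl LOH and -0.080 to 0.49 for *Cd59a* in LOH. The cause was not tested. The block for the sex composition pairs KO female with WT female and KO mix with WT mix, and under it 0 members were called.

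Between the sexes 2 members were called. The number was 4 without a filter on low counts, which added *C1qa* (-2.51) and *C4b* (2.17) in PTs, where 17.2% of genes were called, and the *C1qa* value includes the WT female cell with 50 C1q UMIs. It was 1 with the genotype as covariate and 1 with no covariate, where *Cd59a* had -1.02 and -0.99 and was no longer past the threshold. *Cd55* in PTs was called under all 12 alternatives, from 2.74 to 4.97 (adjusted p from 2.32e-29 to 0.0282 by edgeR or DESeq2), and *Cd59a* under 10 of 12, from -1.29 to -0.67 (adjusted p from 0.000573 to 0.132). Podocyte and PE levels rest on the 2 mixed libraries. Levels relative to non-mitochondrial UMIs, and those without the *C3*-rich cells of Fib and CD PC, were chosen after seeing the data. Depth limits *C4b* and *Cfi*, which were below the filter of the genotype test in every cell type.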
